A study of Mus musculus with 8 samples.

Results

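The nuclear receptor family, the transcription factors switched by steroids, thyroid hormone, retinoids, vitamin D, oxysterols and fatty acids together with their relatives that have no known hormone, was followed in mouse peritoneal macrophages that lacked or kept MED1. The members were the 46 receptor genes of a list matched by symbol to the expression table. Each had 1 row of its own, and none shared a locus with another symbol, among 23735 loci in all. RNA sequencing covered 8 libraries from C57BL/6J mice aged 8 weeks, in 4 groups of 2 libraries lettered A and B. The groups were MED1ΔMac macrophages (KO) with LPS, KO macrophages without treatment, MED1fl/fl macrophages (WT) with LPS and WT macrophages without treatment. LPS, the bacterial cell wall component sensed by Toll-like receptor 4, was given at 50 ng/mL for 6 h. The WT macrophages carry the floxed allele too, and the deletion used a Cre driver not given in the sources used here. Separate mice are not stated for libraries A and B, so every p-value measures a difference against the spread between these libraries, which may be technical. Levels are RPKM, in which reads are divided by transcript length and by the mapped reads of the library, so levels of different receptors can be set side by side per length. Of the 46 receptors, 22 reached 1 RPKM in 2 or more libraries and 24 did not.

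Nuclear receptors bind short hexamer repeats in DNA and exchange corepressors for coactivators when a ligand settles in their pocket. Receptors for retinoic acid, thyroid hormone, vitamin D, oxysterols and fatty acids bind DNA as heterodimers with a retinoid X receptor (RXR), whereas the glucocorticoid receptor works mainly as a homodimer and the NR4A receptors are made quickly after stimulation and need no ligand. MED1 is the subunit of the Mediator complex that ligand-bound nuclear receptors contact through LXXLL motifs, and in macrophages LXR and PPARγ govern cholesterol and lipid handling while the glucocorticoid receptor and REV-ERBα restrain inflammatory genes.

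Depth was estimated at 6.97 to 14.3 M mapped reads per library, so that 1 read on a transcript of 1 kb was worth 0.0697 to 0.144 RPKM. Med1 itself stood at 24.4 and 20.3 RPKM in KO with LPS, 17.6 and 23.4 in KO untreated, 24.7 and 21.6 in WT with LPS and 21.7 and 24.8 in WT untreated. Over both treatments KO minus WT came to -0.12 on the log2(RPKM + 1) scale (SE 0.15, adjusted p = 0.999), and Med1 lay lower in KO in 4 of 4 pairs matched by letter and treatment. A value over the whole locus does not measure the loss of a working transcript, so KO and WT stand for the libraries as labelled. All 9 macrophage markers reached 1 RPKM in 2 or more libraries, with summed levels of 8505 to 18323 RPKM in KO and 18809 to 35890 RPKM in WT. Lyz2, which encodes lysozyme, made up most of each sum, at 4547 to 15001 RPKM in KO and 13230 to 32317 RPKM in WT. The ranges of each other macrophage marker overlapped between KO and WT libraries. Emr1 stood at 277 to 709 RPKM in KO and 396 to 450 in WT, and Spi1 at 173 to 259 and 176 to 288. Markers of other peritoneal cells were present, with summed B cell markers of up to 1759 RPKM in KO and up to 644 RPKM in WT, and mast cell markers of 0.829 to 173 RPKM in KO and 1.44 to 89.7 RPKM in WT. Fewer cells of a type and less RNA per cell cannot be told apart in bulk samples.

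The receptors that reached 1 RPKM were spread unevenly over the subfamilies. The RXRs contributed 2 of 3 genes, the lipid, retinoid and thyroid hormone receptors that pair with RXR 9 of 14, the clock receptors of the REV-ERB and ROR groups 3 of 4, the steroid receptors 1 of 5, the estrogen-related receptors 1 of 3, the NR4A receptors 3 of 3 and the remaining orphan receptors 3 of 14. The 46 members together summed to 300 to 341 RPKM per library, and 11 of them averaged more than 10 RPKM over the 8 libraries. LXRβ (Nr1h2) headed the order with a mean of 50.4 RPKM, followed by the glucocorticoid receptor (Nr3c1) with 40.4, REV-ERBβ (Nr1d2) with 37.5, Ppard with 26.7, Rxra with 25.3, Esrra with 22.4, Rxrb with 16.9, Nr1d1 with 14.9, Nr1h3 with 11.8, Rarg with 11.4 and Rara with 10.8 RPKM. The ranges over libraries of neighbours in this order all overlapped, and the 47.9 to 51.8 RPKM of Nr1h2 lay inside the 25.3 to 56.4 RPKM of Nr3c1.

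**Figure D1:**
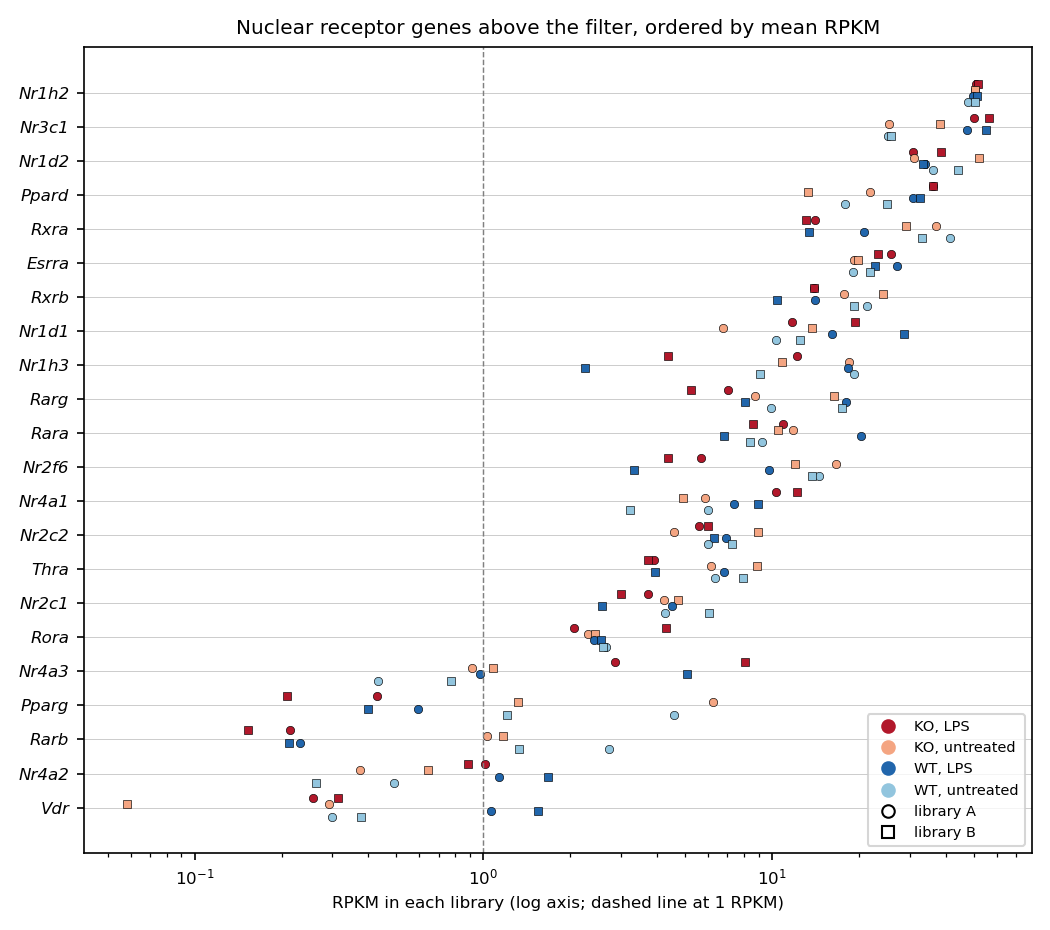
RPKM (log axis) of the 22 receptors that reached 1 RPKM in 2 or more of 8 libraries, ordered from the highest mean at the top; colours mark the 4 groups, circles library A and squares library B. Nr1h2 points lie on top of each other between 47.9 and 51.8 RPKM, while the LPS points of Rxra, Pparg and Rarb lie left of all untreated points and those of Nr3c1, Ppard and Nr4a1 right of them.

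Among the 24 receptors that did not reach the threshold, 9 were listed at 0 RPKM in all 8 libraries. These were the xenobiotic receptor Nr1i2, the photoreceptor and neural receptors Nr2e3 and Nr2e1, Nr2f1, the hepatocyte factors Hnf4a and Hnf4g, Esrrb, the progesterone receptor Pgr and Nr0b1. Another 11 lay above 0 RPKM in some library but never reached 1. Rxrg, the third RXR, lay between 0 and 0.301 RPKM, Ppara, the fatty acid receptor of liver and heart, between 0.0155 and 0.267, and Nr2f2 between 0 and 0.197. The highest library stood at 0.167 RPKM for Nr5a2, 0.119 for Nr5a1, 0.119 for Nr1i3, 0.113 for Nr0b2, 0.0664 for the bile acid receptor Nr1h4, 0.0443 for Esr2, 0.0238 for Esrrg and 0.0127 for Rorb. Nr1i3 shares 51.4% of its exon bases with Tomm40l on the other strand, and the 2 may not be told apart. The last 4 reached 1 RPKM in exactly 1 library, namely Thrb (0.386 to 1.17 RPKM), Nr3c2 (0.203 to 2.02), Esr1 (0.128 to 1.03) and Nr6a1 (0.487 to 1.08). They stood just outside the threshold, as Nr4a2, Vdr and Rarb stood just inside it.

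LPS moved the receptors in both directions. Averaged over genotypes, 5 of the 22 rose (Nr4a3, Nr3c1, Nr4a1, Ppard and Nr4a2) and 5 fell (Pparg, Nr2f6, Rxra, Rarb and Rxrb). A call required a Benjamini-Hochberg adjusted p under 0.05 over all 11272 loci tested in limma, and across those loci 8.46% were called higher with LPS and 21.8% lower, 30.3% in all. The median change of the 22 receptors was -0.02 on the log2(RPKM + 1) scale, against -0.26 over all loci tested. In 5 receptors every LPS library stood above every untreated one and in 5 every LPS library stood below, where 9.2% and 30% of all loci did so. Rarb and Pparg reached 1 RPKM in untreated libraries alone, Nr4a2 in LPS libraries alone and Vdr in the WT libraries with LPS alone. Nr4a3 reached it in KO LPS A, KO LPS B and WT LPS B, but among untreated libraries only in KO untreated B, at 1.08 RPKM. The place of these receptors among the 22 is thus tied to the comparison. Of the 17 receptors at 1 RPKM or more in all 8 libraries, 3 rose and 3 fell, against 29.4% of the 9480 such loci called in either direction. Scaling each library to the median ratio over loci moved the median change of all loci by 0.26, and quantile normalization by 0.22. All loci were then called higher and lower in numbers of 1586 and 1523 with median-ratio scaling and 1352 and 1732 with quantile normalization, in place of 954 and 2456 with the values as deposited.

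**Figure D2:**
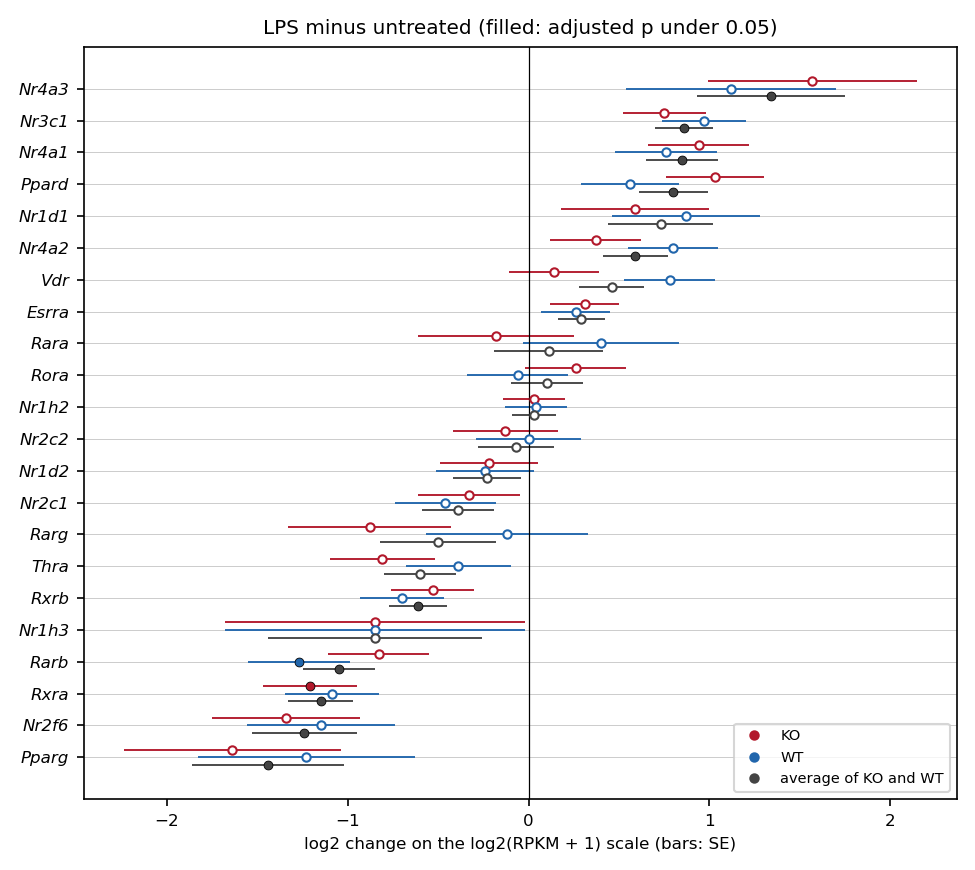
Change with LPS (LPS minus untreated, log2(RPKM + 1) scale) of the 22 receptors in KO, in WT and averaged, ordered by the average, with bars of 1 SE; filled points passed at an adjusted p under 0.05. On average, Nr4a3 stands highest at 1.34 and Pparg lowest at -1.44; among single genotypes Rxra passed in KO and Rarb in WT.

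Rxra and Rxrb, which encode shared partners of the lipid and hormone receptors, fell with LPS, while Rxrg lay below the threshold and was not tested. Rxra (mm9 chromosome 2, 27531960 to 27618477, plus strand) stood at 14.1 and 13.1 RPKM in KO with LPS, 37.1 and 29.1 in KO untreated, 20.9 and 13.4 in WT with LPS and 41.2 and 33.2 in WT untreated. The 4 LPS libraries lay below the 4 untreated ones with no overlap. The average change was -1.15 (SE 0.18, adjusted p = 0.00648), and it passed in 8 of 8 fits that each left out 1 library (highest adjusted p = 0.0326). Rxrb (chromosome 17, 34168757 to 34175338, plus strand) stood at 14 and 14 RPKM in KO with LPS, 17.7 and 24.2 in KO untreated, 14.1 and 10.4 in WT with LPS and 21.3 and 19.3 in WT untreated, also without overlap. Its average change was -0.61 (SE 0.16, adjusted p = 0.0293). It no longer passed with median-ratio scaling (-0.33, adjusted p = 0.083), with quantile normalization (-0.40, adjusted p = 0.0544), or without any 1 of KO LPS A, KO LPS B, KO untreated B, WT untreated A, WT untreated B and WT LPS B (adjusted p = 0.0651 to 0.105).

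Summed over the 3 RXR genes, levels were 28.5 and 27.2 RPKM in KO with LPS, 54.8 and 53.5 in KO untreated, 35.2 and 23.8 in WT with LPS and 62.8 and 52.7 in WT untreated. The 14 lipid, retinoid and thyroid hormone receptors were counted as the RXR partners, and the NR4A receptors were not included. In KO the 14 summed to 123 and 111 RPKM with LPS and 125 and 114 untreated. In WT the sums were 147 and 108 RPKM with LPS and 119 and 122 untreated. RXR transcript per partner transcript was thus 0.232 and 0.245 in KO with LPS, 0.437 and 0.468 in KO untreated, 0.239 and 0.221 in WT with LPS and 0.526 and 0.431 in WT untreated. The partner sums overlapped between LPS and untreated libraries and the RXR sums did not; these sums were formed after the values were seen and were not tested. The Rxra to Rxrb ratio of RPKM was 0.937 to 1.48 in LPS libraries and 1.2 to 2.1 in untreated ones. That ratio, compared as log2((Rxra + 1)/(Rxrb + 1)), averaged 0.20 ± 0.29 with LPS and 0.74 ± 0.34 untreated (SD, n = 4 each; exact two-sided permutation test, p = 0.0857, adjusted over 4 ratios 0.114).

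Of the 3 retinoic acid receptors (RARs), Rarb was called with LPS and Rara and Rarg were not. Rarb (chromosome 14, 17263356 to 17651381, minus strand), itself a classic target of retinoic acid, fell to 0.214 and 0.153 RPKM in KO with LPS, against 1.03 and 1.17 in KO untreated, and to 0.232 and 0.212 in WT with LPS, against 2.72 and 1.33 in WT untreated. No LPS library overlapped an untreated one, and the average change was -1.05 (SE 0.20, adjusted p = 0.0115); without KO LPS B the adjusted p was 0.0506. The lowest of these values stands for about 3.9 reads. Its promoter is shown because it holds the response element by which the RARs act on this gene. In RefSeq (GRCm38.p6), the 250 bases before the start, at chr14:16575477-16575726 on the minus strand, hold the hexamers GGTTCA and AGTTCA with 5 bases between them, printed together in capitals, the first base 53 bases before the start.
Rarb: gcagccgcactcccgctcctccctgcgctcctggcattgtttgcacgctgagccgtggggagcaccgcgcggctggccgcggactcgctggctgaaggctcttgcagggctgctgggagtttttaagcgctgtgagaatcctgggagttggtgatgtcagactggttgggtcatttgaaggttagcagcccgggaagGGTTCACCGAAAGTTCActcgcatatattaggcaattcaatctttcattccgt
The pattern searched was GGTTCA, any 5 bases and AGTTCA, on both strands of windows of 250 bases before and 50 after each start, and 2 of 32851 windows (0.00609%) held it. The pattern spells the hexamers of the Rarb element itself, so Rarb was bound to match. The share of windows therefore does not weigh the match. A match is a description of letters, not a measured binding site.

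Rara, the most widely expressed RAR, ranged from 6.8 to 20.4 RPKM, with an average change of 0.11 (SE 0.30, 95% interval -0.60 to 0.82, adjusted p = 0.804). Rarg ranged from 5.23 to 18 RPKM with an average change of -0.50 (SE 0.32, adjusted p = 0.258). Its 2 KO LPS libraries, at 7.02 and 5.23 RPKM, were below the KO untreated ones at 8.71 and 16.4, whereas the WT LPS libraries at 18 and 8.03 overlapped the WT untreated ones at 9.92 and 17.5. Thra, the thyroid hormone receptor, ranged from 3.72 to 8.88 RPKM with an average change of -0.60 (SE 0.20, adjusted p = 0.0615; 0.0198 without WT LPS A). Thra and Nr1d1 overlap on opposite strands by 263 exon bases (5.7% and 8.42% of their exon lengths), and the authors' use of strand in counting is not known from the labels.

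The 2 PPARs above the threshold, sensors of fatty acids, moved in opposite directions. Ppard (chromosome 17, 28369699 to 28438414, plus strand) stood at 36 and 36.1 RPKM in KO with LPS, 21.8 and 13.3 in KO untreated, 30.9 and 32.5 in WT with LPS and 17.9 and 25 in WT untreated. Every LPS library lay above every untreated one, and the average rise was 0.80 (SE 0.19, adjusted p = 0.0217). It did not pass without KO LPS A, KO LPS B, WT LPS B or WT untreated A (adjusted p = 0.0577 to 0.0812, changes of 0.68 to 0.80). Pparg (chromosome 6, 115311239 to 115440419, plus strand), the receptor that promotes lipid storage and alternative activation, stood at 0.429 and 0.208 RPKM in KO with LPS, 6.22 and 1.32 in KO untreated, 0.593 and 0.397 in WT with LPS and 4.58 and 1.21 in WT untreated. The groups did not overlap, and in each untreated pair library A held the higher value.

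The average change of Pparg was -1.44 (SE 0.42, adjusted p = 0.0398). It was not called with no filter (adjusted p = 0.0723), with median-ratio scaling (-1.29, 0.065), with quantile normalization (-1.26, 0.0854), or without KO LPS A, KO LPS B, KO untreated A, WT LPS A, WT LPS B or WT untreated A (0.0631 to 0.12). Within library letters its change averaged -2.07 among A and -0.80 among B libraries. The Pparg to Ppard ratio of RPKM was 0.0119 and 0.00576 in KO with LPS, 0.285 and 0.099 in KO untreated, 0.0192 and 0.0122 in WT with LPS and 0.256 and 0.0483 in WT untreated. On the log2 scale with 1 added to each level it averaged -4.63 ± 0.26 with LPS and -2.40 ± 0.88 untreated (SD, n = 4 each; exact two-sided permutation test, p = 0.0286, the smallest 4 against 4 libraries allow; adjusted over 4 ratios 0.0571).

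The oxysterol receptors were a steady gene beside a variable one. LXRβ (Nr1h2) stood at 50.8 and 51.8 RPKM in KO with LPS, 50.3 and 50.3 in KO untreated, 49.8 and 51.4 in WT with LPS and 47.9 and 50.5 in WT untreated. Its highest library was 1.08 times its lowest, and only 0.0177% of the loci tested had a smaller standard deviation of log2(RPKM + 1) than its 0.033, where the median locus had 0.36; it was singled out after its values were seen. Its average change with LPS was 0.03 (SE 0.12, 95% interval -0.24 to 0.31) as deposited and 0.33 (adjusted p = 0.112) with median-ratio scaling. LXRα (Nr1h3), which is itself a target of LXR, stood at 12.2 and 4.37 RPKM in KO with LPS, 18.5 and 10.8 in KO untreated, 18.3 and 2.25 in WT with LPS and 19.2 and 9.12 in WT untreated. Library A exceeded library B in each of the 4 groups, by 1.40 on average on the log2(RPKM + 1) scale. LPS libraries lay below their untreated partners in 4 of 4 pairs matched by letter and genotype, but the groups overlapped and the average change of -0.85 (SE 0.59) did not pass (adjusted p = 0.294; 0.0368 and a change of -1.49 without WT LPS A). The Nr1h3 to Nr1h2 log2 ratio averaged -2.67 ± 1.20 with LPS and -1.78 ± 0.53 untreated (SD, n = 4 each; exact two-sided permutation test, p = 0.314, adjusted 0.314).

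**Figure D3:**
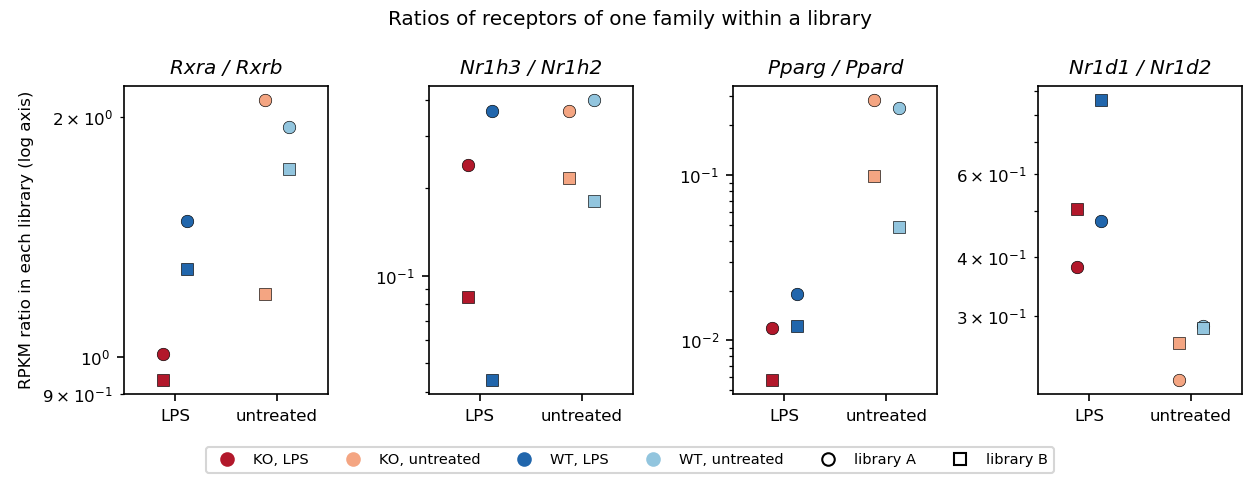
RPKM ratio (log axis) of paired family members in each library, LPS at the left and untreated at the right of each panel; colours mark the 4 groups, circles library A and squares library B. The Pparg to Ppard ratios with LPS (0.00576 to 0.0192) lie below all untreated ones and the Nr1d1 to Nr1d2 ratios with LPS (0.381 to 0.86) above all untreated ones, while the other 2 ratios overlap.

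The glucocorticoid receptor, the only steroid receptor above the threshold, rose with LPS. Nr3c1 (chromosome 18, 39570199 to 39650955, minus strand) stood at 50 and 56.4 RPKM in KO with LPS, 25.4 and 38.1 in KO untreated, 47.4 and 55 in WT with LPS and 25.3 and 25.9 in WT untreated. The LPS libraries, at 47.4 RPKM or more, all lay above the highest untreated value of 38.1. The average change was 0.86 (SE 0.16, adjusted p = 0.0113), and without KO LPS B the adjusted p was 0.0527. Nr3c1 supplied 16.6% and 17.8% of the summed RPKM of the 46 receptors in KO with LPS, 8.48% and 11.5% in KO untreated, 13.9% and 18.2% in WT with LPS and 8.18% and 8.24% in WT untreated. The mineralocorticoid receptor Nr3c2 and the estrogen receptor Esr1 peaked in 1 library, KO untreated B, at 2.02 and 1.03 RPKM, and so did Thrb at 1.17 RPKM. That library also held the highest summed markers of B cells (1759 RPKM), T and NK cells (95.6 RPKM) and mast cells (173 RPKM). The eosinophil sum was highest there too, at 30.4 RPKM, but Il5ra made up 27.4 RPKM of it. Epx stood at 0.0972 RPKM, Prg2 at 0.571 and Ear6 at 0 in that library. The part of other cells in these receptor levels was not tested.

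All 3 NR4A genes, immediate early genes of many stimuli, rose with LPS. Nr4a1 (chromosome 15, 101097277 to 101105223, plus strand), which encodes Nur77, stood at 10.3 and 12.2 RPKM in KO with LPS, 5.85 and 4.9 in KO untreated, 7.41 and 8.96 in WT with LPS and 5.99 and 3.21 in WT untreated. Its average change was 0.85 (SE 0.20, adjusted p = 0.0199); it did not pass without KO LPS B, WT LPS B or WT untreated B (adjusted p = 0.0572 to 0.0827). Nr4a2 (chromosome 2, 56959241 to 56976414, minus strand) stood at 1.01 and 0.884 RPKM in KO with LPS, 0.373 and 0.643 in KO untreated, 1.13 and 1.68 in WT with LPS and 0.49 and 0.263 in WT untreated. The groups of both genes did not overlap, though the lowest Nr4a2 value stands for about 9.9 reads. The average change of Nr4a2 was 0.59 (SE 0.18, adjusted p = 0.0449), and it was lost with a pseudocount of 0.1 (adjusted p = 0.0512) and without any library but WT LPS A (adjusted p = 0.0504 to 0.143).

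Nr4a3 (chromosome 4, 48058025 to 48099319, plus strand), which encodes NOR1, stood at 2.85 and 8.07 RPKM in KO with LPS, 0.912 and 1.08 in KO untreated, 0.973 and 5.08 in WT with LPS and 0.432 and 0.775 in WT untreated. The WT LPS A library, at 0.973 RPKM, lay inside the untreated range. The average change was 1.34 (SE 0.41, adjusted p = 0.0438), with means of 0.74 among A and 1.95 among B libraries. It was not called with no filter (0.0813), with a filter of 5 RPKM (0.0702), with median-ratio scaling (0.0536), with quantile normalization (0.0502) or without any library but KO LPS A and WT LPS A (adjusted p = 0.0855 to 0.143, changes of 0.94 to 1.42). The promoters of the 3 genes are shown with the letters TGACG, the core of a cAMP response element, in capitals. Each window holds them 4 times, counting either strand. The genes were picked for display with their rise and these matches in view. The windows are the 250 bases before the RefSeq start on GRCm38.p6, at chr15:101266596-101266845 (plus strand) for Nr4a1, chr2:57124004-57124253 (minus strand) for Nr4a2 and chr4:48045055-48045304 (plus strand) for Nr4a3, with the first match 233, 200 and 231 bases before the start.
Nr4a1: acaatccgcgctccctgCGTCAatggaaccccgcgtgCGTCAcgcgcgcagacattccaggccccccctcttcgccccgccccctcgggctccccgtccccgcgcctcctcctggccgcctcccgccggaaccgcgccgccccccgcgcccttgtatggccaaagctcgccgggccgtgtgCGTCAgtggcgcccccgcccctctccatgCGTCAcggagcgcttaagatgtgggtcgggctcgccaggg
Nr4a2: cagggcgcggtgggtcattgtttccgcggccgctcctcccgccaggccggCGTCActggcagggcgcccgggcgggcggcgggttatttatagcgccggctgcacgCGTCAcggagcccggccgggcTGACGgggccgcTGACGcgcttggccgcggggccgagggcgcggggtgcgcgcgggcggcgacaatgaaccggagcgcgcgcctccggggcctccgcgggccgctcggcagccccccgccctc
Nr4a3: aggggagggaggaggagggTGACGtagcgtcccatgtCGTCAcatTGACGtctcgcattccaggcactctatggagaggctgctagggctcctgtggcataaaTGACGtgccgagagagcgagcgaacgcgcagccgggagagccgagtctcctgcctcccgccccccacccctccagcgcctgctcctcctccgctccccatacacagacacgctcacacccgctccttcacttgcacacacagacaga
Of 32851 windows of 250 bases before and 50 after a start, 20.8% held TGACG at least 1 time and 0.231% at least 4 times, and 17 of the 63 windows of receptor genes held it. Because the genes were picked with their matches in view, these shares do not weigh the matches. A match is not a measured binding site, and its part in the rise was not tested.

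The REV-ERBs, heme-binding repressors of the circadian clock, were both above the threshold, and neither was called with LPS as fitted. Nr1d1 (REV-ERBα) stood at 11.7 and 19.4 RPKM in KO with LPS, 6.78 and 13.7 in KO untreated, 16.1 and 28.7 in WT with LPS and 10.3 and 12.5 in WT untreated. LPS libraries lay above their untreated partners in 4 of 4 pairs, and library B lay above library A in each group. The average change of 0.73 (SE 0.29) did not pass as fitted (adjusted p = 0.091) and passed once letters entered as a block (adjusted p = 0.012) and without WT LPS A (0.93, adjusted p = 0.0486). Nr1d2 (REV-ERBβ) stood at 30.8 and 38.5 RPKM in KO with LPS, 31 and 52.1 in KO untreated, 33.8 and 33.4 in WT with LPS and 36.2 and 44.1 in WT untreated. The groups overlapped, with an average change of -0.23 (SE 0.19, adjusted p = 0.38), which turned to 0.06 with median-ratio scaling. The Nr1d1 to Nr1d2 ratio of RPKM was 0.381 and 0.505 in KO with LPS, 0.219 and 0.263 in KO untreated, 0.477 and 0.86 in WT with LPS and 0.285 and 0.283 in WT untreated. Its log2 form averaged -0.88 ± 0.47 with LPS and -1.84 ± 0.15 untreated (SD, n = 4 each; exact two-sided permutation test, p = 0.0286, adjusted 0.0571). Rora, the activator at the same elements, ranged from 2.06 to 4.29 RPKM with an average change of 0.10 (SE 0.20, adjusted p = 0.724).

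Among the orphan receptors, Nr2f6 (chromosome 8, 73898022 to 73905859, minus strand), also known as EAR2, fell with LPS. It stood at 5.68 and 4.36 RPKM in KO with LPS, 16.6 and 12 in KO untreated, 9.74 and 3.33 in WT with LPS and 14.5 and 13.8 in WT untreated, without overlap. The average change was -1.24 (SE 0.29, adjusted p = 0.02), and it did not pass without KO LPS B, KO untreated A, WT untreated A or WT untreated B (adjusted p = 0.0504 to 0.0763). Ocel1, on the other strand, shares 1622 exon bases with it (54.4% of its exon length), so reads of the 2 genes may not be told apart; Ocel1 ranged from 4.17 to 6.76 RPKM with an average change of -0.28 (SE 0.15, adjusted p = 0.187). The testicular receptors Nr2c1 (2.58 to 6.04 RPKM) and Nr2c2 (4.58 to 8.97 RPKM) changed by -0.39 (SE 0.20, adjusted p = 0.162; 0.0492 without WT LPS A) and -0.07 (SE 0.21, adjusted p = 0.82; 0.20 with median-ratio scaling). Nr2c2 shares 38.6% of its exon length with Mrps25 on the other strand. Esrra, the estrogen-related receptor that drives mitochondrial genes with PGC-1 coactivators, stood at 25.8 and 23.2 RPKM in KO with LPS, 19.2 and 19.9 in KO untreated, 27.1 and 22.7 in WT with LPS and 19.1 and 21.9 in WT untreated. Its groups did not overlap, and its average change of 0.29 (SE 0.13) did not pass (adjusted p = 0.135) as deposited, but did at 0.58 with median-ratio scaling (adjusted p = 0.0112) and at 0.48 with quantile normalization (adjusted p = 0.0159).

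Within a single genotype, with 2 libraries on each side, 1 receptor was called per genotype. In KO, Rxra fell by 1.21 on the log2 scale (SE 0.26, adjusted p = 0.0394), where 6.62% of all loci were called, 3.31% higher and 3.31% lower. That call was lost with no filter (adjusted p = 0.0693), with median-ratio scaling (-0.92, 0.0528) and without any 1 of the KO or WT untreated libraries or the KO LPS libraries (0.067 to 0.254). In WT, Rarb fell by 1.27 (SE 0.28, adjusted p = 0.0448), where 6.31% of all loci were called (3.17% higher and 3.14% lower), and Rxra stood just outside (-1.09, SE 0.26, adjusted p = 0.0516). The Rarb call was lost with no filter (adjusted p = 0.0531), with median-ratio scaling (-1.16, 0.0507) and without any 1 of the 8 libraries (0.0519 to 0.239). A fit that also took the letter as a block called 6 receptors in KO, where 14.3% of loci were called. Nr3c1 (0.75, adjusted p = 0.044), Ppard (1.03, 0.0476) and Nr4a3 (1.57, 0.0436) rose, and Rxra (0.0109), Pparg (-1.64, 0.0413) and Nr2f6 (-1.34, 0.0341) fell. The same fit called 5 in WT, where 16.1% of loci were, with Nr3c1 (0.97, adjusted p = 0.0191) and Nr1d1 (0.87, 0.0411) higher and Rarb (0.0271), Rxra (0.0135) and Nr2f6 (-1.15, 0.0483) lower. Without overlap between LPS and untreated libraries stood 7 receptors higher and 8 lower in KO, against 15.1% and 48% of all loci, and 8 higher and 7 lower in WT, against 18.2% and 45.9% of all loci. A receptor called in 1 genotype is not thereby shown to respond differently in the other.

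Loss of MED1 left no receptor past the threshold. In untreated macrophages 0 of 22 receptors were called in limma, with 0 at an unadjusted p under 0.05, where 3 loci (0.0266%) were called and 94 had such a p. With LPS 0 were called and 1 had such a p, where 1 locus (0.00887%) was called and 498 had such a p. Averaged over treatments 0 were called and 1 had such a p, where 4 loci (0.0355%) were called and 472 had such a p. The letter block called 0 receptors in each of these contrasts as well. KO minus WT intervals were wide: over the 22 receptors the 95% bounds ran from -1.87 to 2.04 without LPS and from -1.95 to 2.12 with LPS. For Nr1h2 the average difference was 0.02 (95% interval -0.25 to 0.30), for Esrra -0.04 (-0.35 to 0.27), for Nr3c1 0.16 (-0.22 to 0.55) and for Rxrb 0.11 (-0.27 to 0.49). The interval was widest for Nr1h3, at 0.09 (-1.29 to 1.47), so that a difference of up to 1.29 on the log2 scale in either direction could not be told from 0.

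Vdr, the receptor for vitamin D, was the receptor with an unadjusted p under 0.05 in KO against WT with LPS and on average. Vdr (chromosome 15, 97684856 to 97741061, minus strand) stood at 0.257 and 0.314 RPKM in KO with LPS, 0.292 and 0.0583 in KO untreated, 1.06 and 1.55 in WT with LPS and 0.3 and 0.377 in WT untreated. The WT libraries with LPS were the high ones, and Vdr passed the filter through them alone. KO minus WT with LPS was -0.84 (SE 0.25, 95% interval -1.43 to -0.25, adjusted p = 0.989), and the average over treatments was -0.52 (SE 0.18, adjusted p = 0.999), lower in KO in 4 of 4 pairs. Its LPS change was 0.14 (SE 0.25) in KO and 0.78 (SE 0.25, adjusted p = 0.0992) in WT, with an average of 0.46 (SE 0.18, adjusted p = 0.0887; 0.0314 with no filter). Its lowest library stands for about 1.9 reads and its highest for about 52.

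Some receptors kept 1 direction over the 4 pairs of KO and WT libraries matched by letter and treatment, without passing the test. Rarg (-0.51, SE 0.32), Rarb (-0.27, SE 0.20) and Rxra (-0.23, SE 0.18) lay lower in KO in 4 of 4 pairs. Nr4a3 (0.55, SE 0.41) and Nr3c1 (0.16, SE 0.16) lay higher in KO in 4 of 4 pairs. The share of all loci that kept 1 direction in this way was not counted, so these directions are not read as a trait of the receptors. With LPS the KO and WT libraries did not overlap for 7 receptors, 2 higher and 5 lower in KO, where 18.7% and 11.7% of all loci did so. Without LPS they did not overlap for 5, 2 higher and 3 lower, where 17.8% and 5.86% of all loci did so. B cell markers were higher in KO with LPS (1389 and 998 RPKM) than in WT with LPS (607 and 415 RPKM). So were T and NK cell markers (45.5 and 57.2 against 20.5 and 27.1 RPKM). Sums of dendritic cell markers and of eosinophil markers, the latter mostly Il5ra, were higher in KO with LPS too. Mesothelial and fibroblast markers were lower in KO with LPS (4.5 and 2.14 RPKM) than in WT with LPS (17.3 and 21.6 RPKM). The part of these cells in the receptor differences was not tested.

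**Figure D4:**
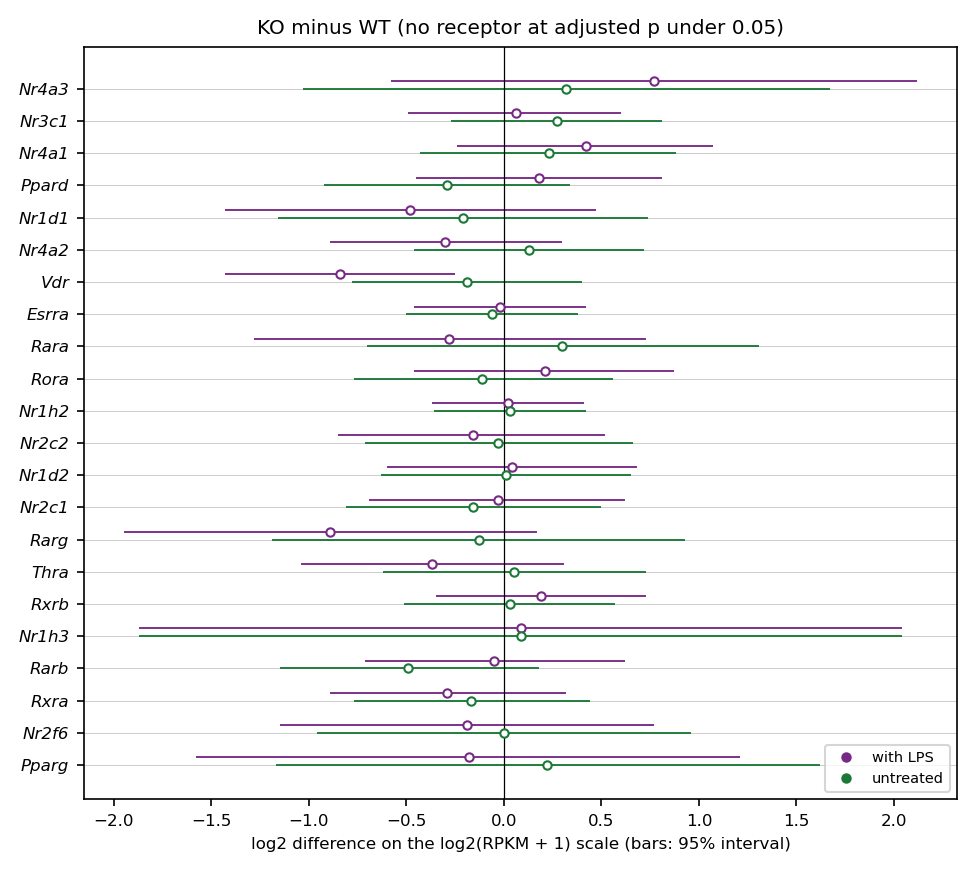
KO minus WT difference (log2(RPKM + 1) scale) of the 22 receptors with LPS and untreated, in the order of the LPS change, with bars of the 95% interval; no point passed at an adjusted p under 0.05. The interval of Vdr with LPS, -1.43 to -0.25, is the only one that leaves out 0.

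No receptor passed the interaction test of the LPS response in KO against that in WT, with 0 called and 0 at an unadjusted p under 0.05 in limma, against 4 loci (0.0355%) called and 184 with such a p. The 3 furthest from 0 were Rarg at -0.76 (SE 0.64), Vdr at -0.64 (SE 0.36) and Rara at -0.58 (SE 0.61). For Rxra the difference of responses was -0.12 (95% interval -0.97 to 0.74) and for Nr3c1 -0.22 (-0.98 to 0.55), and differences within those intervals could not be told from 0.

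Coregulators and chaperones of the receptors held both rising and falling genes. Of 20 coactivators tested 0 rose and 5 fell (median -0.23), and of 18 corepressors 1 rose and 4 fell (median -0.30), where all loci had a median of -0.26 and 8.46% were called higher and 21.8% lower. The shares of coactivators and corepressors that fell were thus near that of all loci. Ppargc1b, the PGC-1β partner of Esrra, stood at 0.514 and 0.189 RPKM in KO with LPS, 2.35 and 3.29 in KO untreated, 1.66 and 0.267 in WT with LPS and 2.53 and 4.63 in WT untreated (change -1.39, SE 0.29, adjusted p = 0.0141). Ncoa4 (-0.97, SE 0.24), Ncoa1 (-0.86, SE 0.19), which encodes the coactivator SRC-1, and the acetyltransferase Kat2a (-0.76, SE 0.22; adjusted p = 0.0544 with median-ratio scaling) fell as well. Among corepressors, Tnip1, better known as an inhibitor of NF-κB, rose by 2.50 (SE 0.23, adjusted p = 0.00135), and Hdac5 (-1.36, SE 0.27), Bcl6 (-1.28, SE 0.30; adjusted p = 0.0613 with median-ratio scaling) and Tbl1x (-1.14, SE 0.17) fell. Of 14 chaperones of steroid receptors 2 rose, Stip1 (0.83, SE 0.15) and Ptges3 (0.52, SE 0.13), and 1 fell, Fkbp4 (-0.89, SE 0.17), with a median of -0.06. The letter block called 2 of the chaperones higher and 3 lower, where it called 36.4% of all loci in either direction.

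Genes linked to the receptors, known targets among them, are given list by list. Of all loci tested, 8.46% were called higher with LPS and 21.8% lower, with a median change of -0.26. The lists were chosen with earlier results of these data known, and their counts do not measure the activity of a receptor. Of 18 PPAR target genes, mainly of fatty acid transport and oxidation, 0 rose and 14 fell, with a median of -1.16 and estimates below 0 in 18 of 18. Fabp5, a fatty acid binding protein, stood at 230 and 133 RPKM in KO with LPS, 1367 and 804 in KO untreated, 139 and 146 in WT with LPS and 2091 and 1053 in WT untreated (change -2.97, SE 0.31, adjusted p = 0.00187). Angptl4 (-2.33, SE 0.26), Acaa2 (-2.03, SE 0.36) and Cpt1a (-1.97, SE 0.31), the gate of mitochondrial fatty acid import, fell too. Of 17 LXR target genes 1 rose, the cholesterol exporter Abca1 (1.18, SE 0.21), and 2 fell, among them Mertk (-1.03, SE 0.20; adjusted p = 0.0527 with median-ratio scaling). Their median was -0.61. The letter block called 1 of the LXR target genes higher and 6 lower, where it called 36.4% of all loci in either direction.

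Of 8 retinoid genes 2 rose and 2 fell, with a median of -0.17, where 8.46% of all loci rose and 21.8% fell. Dhrs3, the retinaldehyde reductase induced by retinoic acid, stood at 12 and 6.53 RPKM in KO with LPS, 73.6 and 83.8 in KO untreated, 15.5 and 4.81 in WT with LPS and 94.7 and 65 in WT untreated (change -3.01, SE 0.35, adjusted p = 0.00243). Gata6, the factor of resident peritoneal macrophages, fell by 1.04 (SE 0.17), whereas the retinaldehyde dehydrogenase Aldh1a2 (1.14, SE 0.21) and Tgm2 (2.29, SE 0.26) rose. Enzymes that make or remove ligands counted 3 higher and 7 lower of 15 (median -0.67), with the prostaglandin synthase Ptgs2 (6.78, SE 0.52) and the oxysterol maker Ch25h (3.27, SE 0.37) among those that rose. The sterol hydroxylase Cyp27a1 (-2.58, SE 0.29) and the lipoxygenase Alox5 (-2.44, SE 0.22) were among those that fell.

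Of 18 glucocorticoid receptor targets 7 rose and 4 fell, with a median of 0.37, where 8.46% of all loci rose and 21.8% fell. The metallothionein Mt2 (3.71, SE 0.40) and the formyl peptide receptor Fpr1 (3.15, SE 0.51) rose, and Anxa1, the annexin induced by glucocorticoids (-2.25, SE 0.64; adjusted p = 0.0603 with median-ratio scaling), and Tns1 (-2.09, SE 0.26) fell. Several of these genes, Mt2 and Fpr1 among them, are also known to respond to LPS. Of 4 genes tested from a vitamin D list that was not limited to receptor targets, 2 rose and 1 fell. Camp (3.21, SE 0.49), also listed here as a neutrophil marker, and Cd14 (2.58, SE 0.31) rose. Cyp27a1, counted among the ligand enzymes too, fell. These counts do not measure the activity of Vdr. Of 17 clock genes and REV-ERB targets 1 rose, the REV-ERBα target Mmp9 (2.88, SE 0.51), and 2 fell, Dbp (-2.23, SE 0.46) and Tef (-1.06, SE 0.21), with a median of -0.15. The letter block called 2 higher and 3 lower, where it called 36.4% of all loci in either direction. No gene of these 10 lists was called for MED1 loss in either treatment, for the average over treatments or for the interaction.

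Several receptors differed between the lettered libraries of a group. Library A stood above library B in all 4 groups for 5 of 22 receptors (22.7%; 18.2% of all loci), namely Nr1h3, Pparg, Nr2f6, Rara and Rxra. Library B stood above library A in all 4 groups for 4 of 22 (18.2%; 6.83% of all loci), namely Nr4a3, Nr1d1, Nr3c1 and Nr1h2. All 10 receptors called with LPS kept their direction within the A libraries alone and within the B libraries alone. Where the LPS and untreated libraries did not overlap, this was bound to hold. It is therefore no separate support for the calls, which came from these same libraries. Rxra changed by -1.14 among A and -1.17 among B libraries, Nr3c1 by 0.91 and 0.80, Nr4a1 by 0.50 and 1.20 and Nr2f6 by -0.96 and -1.53. The 8 mast cell markers also stood higher in B than in A in all 4 groups, as did the summed T and NK cell markers. Among the macrophage and large peritoneal macrophage markers, Timd4 and Prg4 stood higher in B in all 4 groups. Garnl3, Cd68 and Spi1 stood higher in A in all 4 groups. The part of these cells and genes in the letter differences was not tested.

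**Figure D5:**
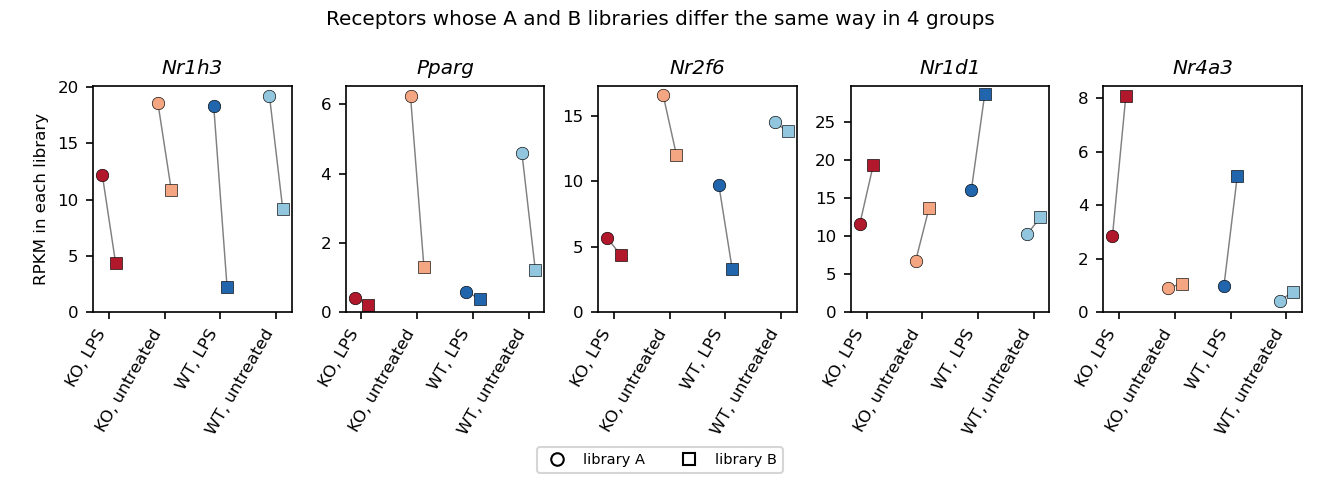
RPKM of 5 receptors whose A (circle) and B (square) libraries differed the same way in all 4 groups; lines join the libraries of a group, and the axes start at 0. Nr1h3 with LPS in WT spans 18.3 RPKM in library A and 2.25 in library B, and Nr4a3 with LPS in WT spans 0.973 and 5.08.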

How the data were processed

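RNA was sequenced from 8 libraries, 2 in each of 4 groups. Per the submitters' processing notes, reads were handled with bcl2fastq, TopHat2 2.0.14 and Cufflinks 2.2.1 on mm9; the annotation and the use of strand were not given in the sources used here. Deposited values are RPKM as the authors computed them, with no read counts, so the read depth comes from steps among low values (93.1% of 3006 low loci were whole multiples of 1 read, within 0.1 read plus 0.02 per read). Repeated lines (457) were used once. Loci at 1 RPKM or more in 2 libraries or more (11272) were analysed as log2(RPKM + 1) with limma 3.58.1 in R 4.3.3, with a mean per group, a variance trend and 7 contrasts; tests were two-sided and adjusted by Benjamini-Hochberg over all loci. Fold changes on this scale understate changes of low genes. The script was tested on simulated data.

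The 4 ratios were compared by exact permutation over libraries. Deviations from the group means correlated by letter at 0.2 to 0.41 in 6 of 6 pairs of groups across loci, so the letters can be read as pairs. The main fit did not use the letter. The fit with the letter as a replicate block is given beside a result where it changes the call of a named gene or moves a count of calls by over 1.5 times. All receptors are named, with values by library for those called, for changes of at least 1 with LPS and for those the ratios use; up to 4 called genes with the largest changes were named per list, and 1 gene that this rule took is not reported here. The members and lists were chosen with earlier results of these data known. Positions are from GENCODE vM1 on mm9 and promoters from RefSeq on GRCm38.p6, matched by symbol for 46 and 42 receptors. Other pseudocounts, filters, scalings and left-out libraries were tried.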

Additional observations from a re-analysis of the deposited data

How the results depend on the processing

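The counts of receptors called for MED1 loss, in either treatment or on average, and for the interaction were 0 under every alternative run. For LPS averaged over genotypes the count was 10, it was 6 with a filter of 5 RPKM, which left 16 receptors to test, and it ran from 1 (without KO LPS B) to 13 (without WT LPS A) when 1 library was left out; it was 4 without WT LPS B or WT untreated A, 5 without WT untreated B and 6 without KO LPS A or KO untreated A. For LPS in KO the count was 1; it was 0 with no filter, 0 with median-ratio scaling, 6 with the letter as a replicate block and 0 to 2 when 1 library was left out. For LPS in WT the count was 1 (Rarb, lower); it was 0 with no filter, 1 with median-ratio scaling, there Nr3c1 as higher (adjusted p = 0.039) and not Rarb, 3 with quantile normalization, 5 with the letter as a replicate block and 0 to 5 when 1 library was left out. A side left with 1 library was assumed to vary like the other groups. No receptor called with LPS and no ratio changed direction in these settings; among changes that were not called, Nr1d2 turned from -0.23 to 0.06 and Nr2c2 from -0.07 to 0.20 with median-ratio scaling. The log2 ratio differences kept their direction in every setting and passed after adjustment in none, with adjusted p from 0.0571 to 0.114 for Pparg over Ppard; permuting within letters as the replicate block gave 0.111, and with the 36 splits within letters or within genotypes no ratio could have passed. The causes of these moves were not tested. The split by letter was chosen after seeing the data. Depth limits Rarb, Nr4a2, Vdr and Pparg most, whose lowest values stand for about 1.9 to 9.9 reads.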
